A study of Mus musculus with 32 samples.

Results

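The vesicular glutamate transporters VGLUT1, VGLUT2 and VGLUT3 are encoded by *Slc17a7*, *Slc17a6* and *Slc17a8*. These genes were chosen by symbol and are 3 of the 23420 genes in the count tables, and all 3 were among the 15589 genes that passed the expression filter and were tested. Striatal RNA was sequenced from 8 B6.D2 congenic mice and from 8 C57BL/6J (B6) littermates. The congenic mice are heterozygous for a segment of chromosome 11 from DBA/2J (D2), on a B6 background that, by the study's genotyping, can carry D2 alleles on another chromosome in either genotype. All mice were naive and about 50 days old by the labels, and each library came from the pooled 3 mm striatal punches of both hemispheres of 1 mouse. The labels and the study's methods differ on age, punch diameter and RNA kit, and the values of the labels are the ones given here.

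VGLUTs load glutamate into synaptic vesicles, driven by the electrochemical gradient that the vesicular proton pump sets up, and a neuron that lacks all of them does not release glutamate from vesicles. In the forebrain, *Slc17a7* is transcribed mainly by glutamatergic neurons of cortex and hippocampus, *Slc17a6* mainly by neurons of thalamus and hypothalamus, and *Slc17a8* by scattered neurons that also use another transmitter, among them striatal cholinergic interneurons. Serotonergic neurons of the raphe, in the brainstem, transcribe *Slc17a8* too. The principal neurons of the striatum are GABAergic, and its glutamatergic terminals belong to cells whose bodies lie in cortex and thalamus.

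Reads were counted per gene and summed over lanes for each mouse. In both genotypes, mice 1 to 4 were sequenced on lanes 5 and 6, and mice 5 to 8 on lanes 7 and 8. For B6 mouse 7 only the lane 8 file was used here, giving 31 lane files. Between 19032826 and 33748353 reads were counted on genes per B6 mouse (median 30222554) and between 24912413 and 32085311 per congenic mouse (median 29352254). A pair of libraries stood apart in how their reads were distributed. Shares here are of all entries recorded at the counting step, on genes or not, and not of all reads sequenced. In B6 mouse 8, 68.3% of these entries fell on genes. In congenic mouse 1, 27.3% had more than 1 alignment, against 20.4% to 21.1% in the other congenic mice. For the transporters, fold changes and the relations and ratios that follow were also computed without this pair. The striatal label was checked against 15 measured markers of striatal projection neurons, the principal cells of the tissue. Their summed level was 7043 to 10400 CPM (counts scaled to library size with TMM factors) in B6 mice and 7740 to 8955 in congenic mice, and none of the 15 was near 0. *Pde10a*, a striatal phosphodiesterase, was the most abundant. None of the 15 passed an unadjusted p of 0.05 in either direction between genotypes by edgeR's test or by DESeq2, and their median log2 fold change was 0.04, with 0.17 in lanes 5 and 6 and -0.07 in lanes 7 and 8. Without B6 mouse 8 the median was 0.11 and 3 of them were higher in congenic mice at that p.

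In the RefSeq annotation of GRCm38.p6, the assembly of the authors' alignment (mm10), *Slc17a7* lies at chr7:45163921-45176139 and *Slc17a6* at chr7:51621830-51671126, both on the plus strand. *Slc17a8* lies at chr10:89574020-89621249 on the minus strand. None of the 3 genes lies on chromosome 11, which carries the D2 segment. The annotated exons, joined, cover 2939, 4319 and 4720 bases in *Slc17a7*, *Slc17a6* and *Slc17a8*, by the GENCODE vM1 models. A microRNA gene lies within the span of *Slc17a7* and a predicted gene within that of *Slc17a6*, and neither is in the count tables. Because counting did not use the strand, reads from such genes cannot be told apart from those of the transporter wherever they overlap its exons.

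The 3 genes are paralogs, and sequence shared between them bears on whether 50-base reads can be told apart. Over the aligned coding sequence *Slc17a7* and *Slc17a6* were 71.8% identical, *Slc17a7* and *Slc17a8* 68.9%, and *Slc17a6* and *Slc17a8* 70.7%. The longest identical run between any of them was 25 bases, shorter than a read. The coding stretch of 50 bases that is most alike in all 3 is shown to make this visible, written from the 5′ end with the bases that are not identical in all 3 in capitals.
Slc17a7: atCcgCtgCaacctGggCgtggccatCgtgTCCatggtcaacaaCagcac
Slc17a6: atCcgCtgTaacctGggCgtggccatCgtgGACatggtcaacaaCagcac
Slc17a8: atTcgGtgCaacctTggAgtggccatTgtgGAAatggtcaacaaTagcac
In this stretch, which starts at coding base 235 of *Slc17a7*, 259 of *Slc17a6* and 313 of *Slc17a8*, 40 of 50 bases were identical in all 3. *Slc17a7* and *Slc17a6* differed there at 3 bases, *Slc17a7* and *Slc17a8* at 9, and *Slc17a6* and *Slc17a8* at 8. Of all 50-base windows along the exons, 0 of 2890 in *Slc17a7* and 0 of 4270 in *Slc17a6* also occurred in another protein-coding gene. In *Slc17a8*, 50 of 4710 windows did (1.1%), all outside its coding sequence.

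The transporters were expressed at very unequal levels in these punches. Per kilobase of exon, *Slc17a7* stood at 141 ± 27.9 CPM in B6 mice and 91.3 ± 28.0 in congenic mice (mean ± SD, n = 8 each). *Slc17a6* stood at 3.08 ± 1.76 and 2.36 ± 0.88 CPM per kilobase, and *Slc17a8* at 3.54 ± 0.468 and 3.44 ± 0.47. *Slc17a7* was the highest of the 3 in 16 of 16 mice. It exceeded *Slc17a6* by between 21.8 and 163 times per kilobase (median 38.0) and *Slc17a8* by between 14.3 and 52.8 times (median 33.1). *Slc17a6* and *Slc17a8* did not keep an order: *Slc17a6* was above *Slc17a8* per kilobase in 4 of 8 B6 mice and in 1 of 8 congenic mice, and the B6 means of both genes lay within each other's spread. In congenic mice the mean of *Slc17a8* was above that of *Slc17a6* by more than the SD of either gene. Of the summed level of the 3 genes per kilobase, *Slc17a7* made up 95.4% ± 1.15 in B6 mice and 93.5% ± 2.37 in congenic mice. For comparison on the same scale, *Slc32a1*, which encodes the vesicular GABA transporter of the striatum's own neurons, stood at 74.8 CPM per kilobase in B6 mice and 80.3 in congenic mice.

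**Figure D1:**
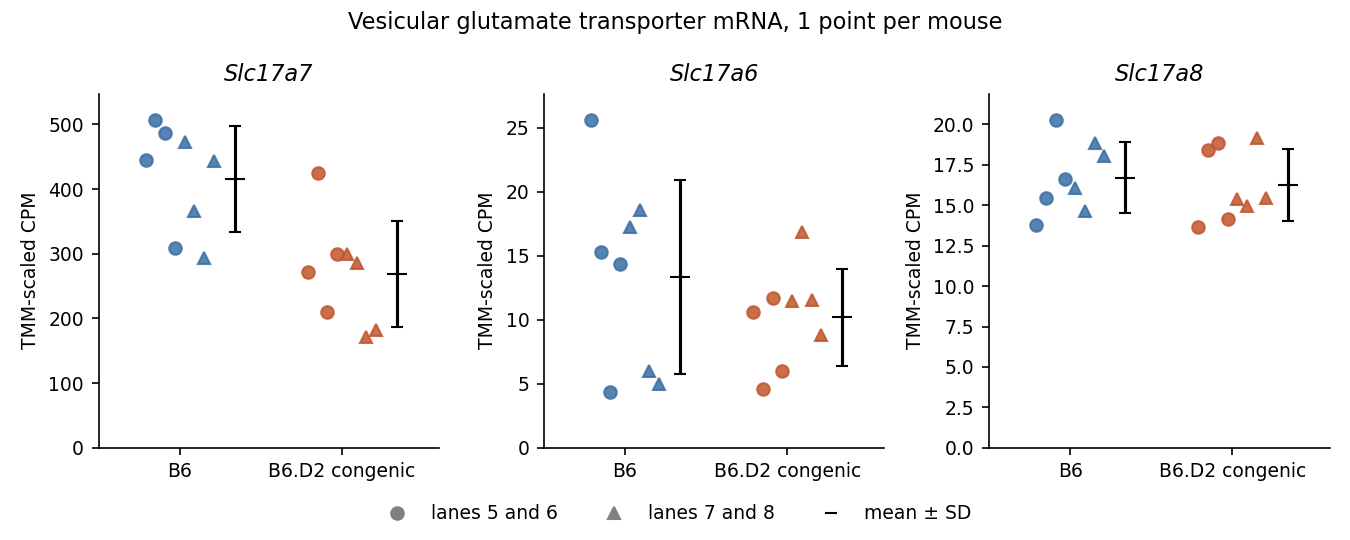
TMM-scaled CPM of *Slc17a7*, *Slc17a6* and *Slc17a8* in each of the 16 mice, by genotype, with circles for lanes 5 and 6, triangles for lanes 7 and 8, and the mean ± SD beside each group. For *Slc17a7*, 5 of 8 congenic mice lie below the lowest B6 mouse, while for *Slc17a6* all 8 congenic mice lie within the B6 range and for *Slc17a8* 7 do.

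By the quasi-likelihood test of edgeR, with Benjamini-Hochberg adjustment across genes, 1 of 15589 genes (0.00641%) differed between genotypes at 5% FDR. This count was 4 without congenic mouse 1, 3 without congenic mouse 6, and 7 without both libraries that stood apart. None of the 3 transporters was among them, nor was any of them at 5% by DESeq2 or edgeR's likelihood ratio test, which called 31 and 20 genes. At an unadjusted p under 0.05 there were 1559 genes, 10% of those tested: 5.14% were lower and 4.86% higher in congenic mice. Of the transporters, *Slc17a7* was in the lower set and none was in the higher set. With 1 member of 3 called, the count is too small to be read against that background.

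*Slc17a7*, the cortical transporter, was lower in congenic mice. In B6 mice its level was lowest in mouse 7 at 294 CPM and highest in mouse 2 at 507 CPM, with a median of 444. In congenic mice it ran from 171 CPM in mouse 7 to 425.5 in mouse 2, with a median of 279. The groups overlapped in part: all 8 congenic mice lay below the B6 median, 5 lay below the lowest B6 mouse, and 5 B6 mice lay above the highest congenic mouse. The mean was 415 ± 81.9 CPM in B6 mice and 268 ± 82.2 in congenic mice, 0.646 of the B6 mean. The lowest count of *Slc17a7* in any mouse was 4912.

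The log2 fold change of *Slc17a7* was -0.63 (SE 0.17), with an unadjusted p of 0.00133 and an FDR of 0.331 over all genes by edgeR's quasi-likelihood test, so it did not pass 5%. An exact two-sided permutation test of mean log2 CPM over all 12870 assignments of the 16 mice gave p = 0.00357. Across 28 other settings the log2 fold change lay between -0.76 and -0.53 and the FDR between 0.0571 and 0.862. Without the libraries that stood apart it was -0.62. The direction was the same in both lane pairs, at -0.53 (SE 0.22) in lanes 5 and 6 and -0.75 (SE 0.20) in lanes 7 and 8, and all 4 congenic mice of each pair lay below the B6 median of that pair. The difference between lane pairs was -0.21 (SE 0.32; edgeR interaction test, FDR 0.952). In that interaction test 0 of 15589 genes (0%) passed an FDR of 5%, and 293 genes (1.88%) had an unadjusted p under 0.05, none of them a transporter. In RNA from whole punches, fewer cells of a type and less RNA per cell cannot be told apart.

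**Figure D2:**
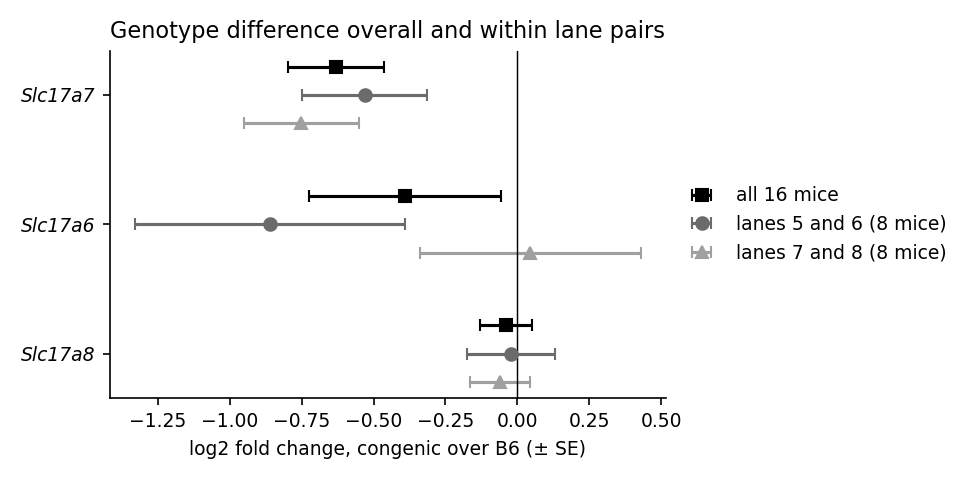
Log2 fold change (congenic over B6, ± SE) of each transporter in all 16 mice and within each lane pair of 8 mice. *Slc17a7* lies at -0.63, -0.53 and -0.75, *Slc17a6* moves from -0.86 in lanes 5 and 6 to 0.05 in lanes 7 and 8, and *Slc17a8* lies near 0 in each.

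Markers of cortical glutamatergic neurons, which transcribe *Slc17a7*, lay in the same direction. The mean of 12 of 12 of these markers was lower in congenic mice and 8 of 12 had an unadjusted p under 0.05, all lower (5.14% of all genes tested were lower at that p), with a median log2 fold change of -0.54 against 0.01 for all genes tested. This list and the others were chosen with earlier results of these data known. Their counts are therefore not independent evidence beside the share over all genes. None of the 12 cortical markers passed an FDR of 5% with edgeR's quasi-likelihood test, and 1, *Neurod6*, did with DESeq2 (FDR 0.0404) and with edgeR's likelihood ratio test (FDR 0.043). Over all settings its FDR ran from 0.0404 to 0.862. The transcription factor gene *Neurod6* had a log2 fold change of -0.56 (SE 0.13), and *Nrn1*, which encodes the neurite growth protein neuritin, -0.77 (SE 0.22), with edgeR FDRs of 0.331 and 0.346. *Lamp5*, the most abundant gene of the list with 33.2% of its counts, had -0.08 (SE 0.09). The list summed to between 273 and 418 CPM in B6 mice and between 222 and 372 in congenic mice, and none of its genes had a mean under 0.1 CPM. The count of 8 was 5 in lanes 5 and 6, 7 in lanes 7 and 8, and 10 without the libraries that stood apart.

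Across the 16 mice, *Slc17a7* varied closely with the summed level of these cortical markers (Pearson r = 0.966, Spearman rho = 0.926, on log2 CPM). The permutation p of r was 1e-05, the smallest that 100000 resamples can give, and 9e-05 after Benjamini-Hochberg adjustment over the 18 relations computed between the transporters and 5 marker lists and among the transporters. This r was 0.945 after the mean of each genotype was subtracted and 0.962 without the 2 mice farthest from the median of the list. Within lanes 5 and 6 r was 0.971, and within lanes 7 and 8 it was 0.983. Mice whose punches held more cortical marker RNA held more *Slc17a7* RNA in both genotypes, with r = 0.949 in B6 mice and 0.951 in congenic mice.

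*Slc17a7* was also compared with the cortical markers within each library, as the log2 ratio of its counts to their summed counts. This ratio ran from 0.06 to 0.40 in B6 mice (mean 0.24 ± 0.13) and from -0.44 to 0.19 in congenic mice (mean -0.08 ± 0.22). All 8 congenic mice lay below the B6 median, although the ranges overlapped. The difference of -0.32 gave p = 0.00342 in an exact two-sided permutation test. Its size depended on how the genes of the list were weighted, since a sum follows abundant genes: without *Lamp5* the difference was -0.19 (exact permutation p = 0.0235), and with equal weight for each of the 12 genes, as the mean of their log2 CPM, it was -0.16 (exact permutation p = 0.0163). Gene by gene, *Slc17a7* at -0.63 lay near the list median of -0.54, and 2 genes of the list lay lower, *Nrn1* and *Neurod1*, the latter at -0.82 (SE 0.36). Without the libraries that stood apart the difference of the summed ratio was -0.30 (exact permutation p = 0.0128). In lanes 7 and 8 it was -0.40 (exact permutation p = 0.0286, the smallest that 4 against 4 mice can give), and in lanes 5 and 6 it was -0.25 and no longer passed (exact permutation p = 0.114).

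**Figure D3:**
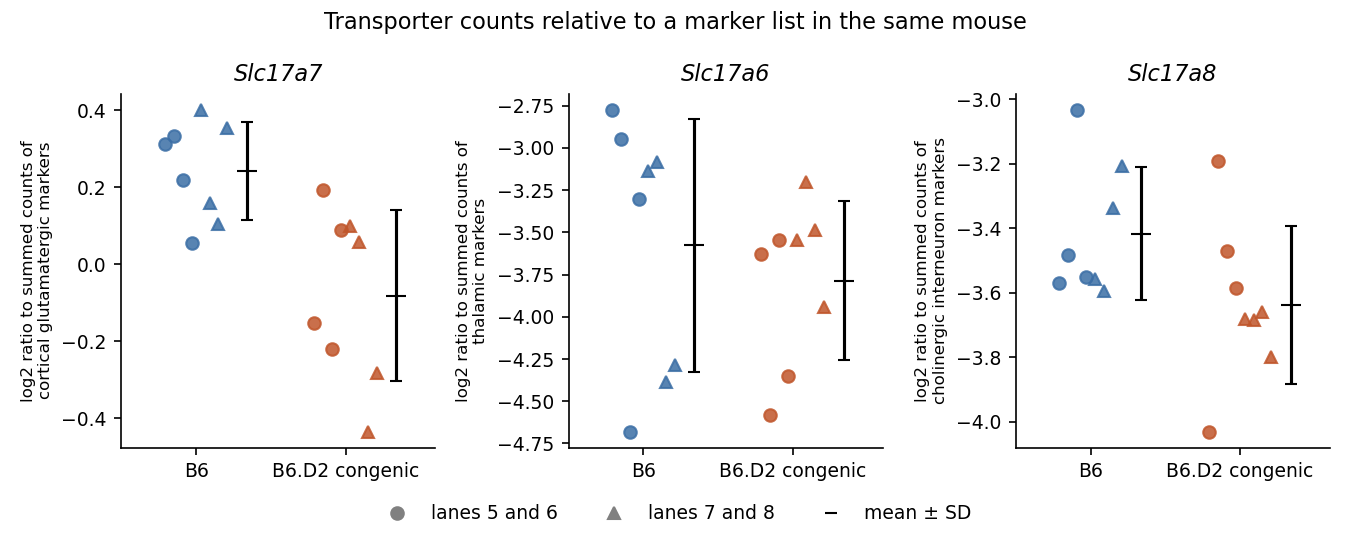
Log2 ratio of the counts of each transporter to the summed counts of a marker list in the same mouse (cortical glutamatergic markers for *Slc17a7*, thalamic markers for *Slc17a6*, cholinergic interneuron markers for *Slc17a8*), with symbols as in the plot of CPM by mouse. For *Slc17a7* the ratio averages 0.24 in B6 mice and -0.08 in congenic mice, with overlapping ranges.

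*Slc17a7* ran opposite to the markers of cholinergic interneurons, a resident cell type of the striatum. Across the 16 mice r was -0.851 and rho -0.838 (permutation p = 6e-05 for r, adjusted p = 0.00036). It was -0.781 after genotype means were subtracted, -0.826 without the 2 farthest mice, -0.797 within lanes 5 and 6 and -0.882 within lanes 7 and 8. With markers of claustrum and lateral cortex, r was 0.624 and rho 0.609 (permutation p = 0.00817, adjusted p = 0.0368). That last relation held less well than the others: r was 0.358 after genotype means were subtracted (adjusted permutation p = 0.395), and without the 2 farthest mice it was 0.623 (adjusted permutation p = 0.0685). Within lane pairs it was 0.537 and 0.769. Thalamic and hypothalamic markers gave r of -0.161 and -0.159 with *Slc17a7* (rho -0.188 and -0.324), with adjusted permutation p of 0.93 for both. Within lanes 5 and 6 these were -0.221 and -0.033, and within lanes 7 and 8 they were -0.059 and -0.769 (exact permutation p = 0.0257 for the last, not adjusted). Without the 2 mice farthest in hypothalamic markers, B6 mouse 1 and congenic mouse 4, that r was -0.613 (adjusted permutation p = 0.0685).

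The claustrum and lateral cortex list, which stands for glutamatergic cells beside the striatum, had 3 of 6 genes lower at an unadjusted p under 0.05 (5.14% of all genes tested), none at an edgeR FDR of 5%, and a median log2 fold change of -0.17. These were *Gnb4*, a G protein subunit, at -0.21 (SE 0.05), the nuclear receptor gene *Nr4a2* at -0.45 (SE 0.14) and *Ntng2*, which encodes netrin-G2, at -0.33 (SE 0.11). The list summed to 421 to 561 CPM in B6 mice and 396 to 446 in congenic mice. *Synpr*, which encodes a synaptic vesicle protein, contributed 55.4% of it, and no gene of the list had a mean under 0.1 CPM. In lanes 5 and 6 alone 1 of the 6 was lower at that p. This list too was chosen with earlier results of these data known. The part of cortical and claustral marker levels in the difference of *Slc17a7* was not tested beyond the ratio above.

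**Figure D4:**
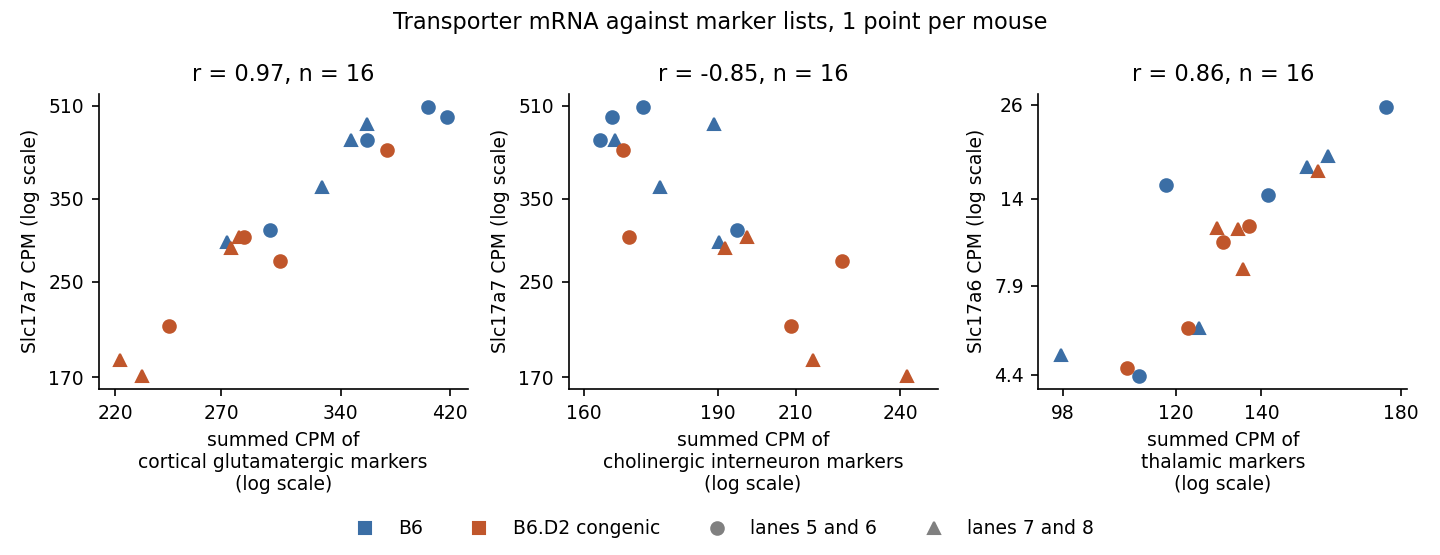
CPM of *Slc17a7* against the summed CPM of cortical glutamatergic markers (left) and of cholinergic interneuron markers (middle), and CPM of *Slc17a6* against thalamic markers (right), on log axes, with 1 point per mouse, colour for genotype and shape for lane pair. Pearson r over 16 mice is 0.97, -0.85 and 0.86.

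The 6 genes whose levels followed *Slc17a7* most closely over the 16 mice, after genotype means were subtracted, were the predicted gene *Gm11549* (r = 0.964), *Stx1a* (0.956), *Lingo1* (0.953), *Neurod2* (0.949), *Emx1* (0.942) and *Cckbr* (0.937), and the median over all genes tested was -0.01. *Neurod2* and *Emx1* are transcription factor genes of the cortical list, *Stx1a* encodes the presynaptic protein syntaxin 1A, and *Cckbr* encodes a cholecystokinin receptor. All 6 had lower means in congenic mice, with log2 fold changes from -0.62 for *Emx1* to -0.36 for *Lingo1*, and none passed an edgeR FDR of 5%.

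*Slc17a6*, the thalamic and hypothalamic transporter, varied most of the 3 between mice of the same genotype. In B6 mice it ran from 4.38 CPM in mouse 3 to 25.6 CPM in mouse 1, a range of 5.85 times, with a median of 14.8. In congenic mice it ran from 4.60 CPM in mouse 2 to 16.9 in mouse 6, with a median of 11.03. B6 mice were either low, with mice 3, 7 and 8 between 4.38 and 5.98 CPM, or above every congenic mouse but the highest, and all 8 congenic mice lay within the B6 range. Means were 13.3 ± 7.58 CPM in B6 mice and 10.2 ± 3.80 in congenic mice, with coefficients of variation of 57.0% and 37.3%. The lowest count in any mouse was 114, with a counting error of 9.37%.

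The log2 fold change of *Slc17a6* was -0.39 (SE 0.33; edgeR FDR 0.695). Mean log2 CPM differed by less, -0.23, and an exact permutation test of that difference gave p = 0.576. Both values were within the spread between mice, which is wide enough that differences of this size could not be resolved. The log2 fold change was -0.18 without B6 mouse 1 and -0.53 without the libraries that stood apart. Within lanes 5 and 6 the log2 fold change was -0.86 (SE 0.47), and within lanes 7 and 8 it was 0.05 (SE 0.38). The sign thus differed between lane pairs, but the interaction itself, 0.92 (SE 0.67), had an edgeR FDR of 0.95.

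*Slc17a6* followed the thalamic markers from mouse to mouse (r = 0.864, rho = 0.85, permutation p for r = 1e-05, the smallest 100000 resamples can give, adjusted p = 9e-05). The relation was 0.869 after genotype means were subtracted and 0.816 without the 2 farthest mice, B6 mice 1 and 8. Within lanes 5 and 6 it was 0.837, and within lanes 7 and 8 it was 0.914. The thalamic list summed to 97.6 to 175 CPM in B6 mice and 110 to 155 in congenic mice, and its most abundant gene was *Plekhg1* at 27.9%. None of its 13 genes had a mean under 0.1 CPM. No gene of the list passed an unadjusted p of 0.05 in either direction by edgeR's quasi-likelihood test, and 1 was lower by DESeq2 and by the likelihood ratio test. The median log2 fold change was -0.05, and its sign was not stable: it was 0.05 without B6 mouse 1, 0.0047 without congenic mouse 2, 0.02 without congenic mouse 4 and 0.06 in lanes 7 and 8. In lanes 5 and 6 the median was -0.18. The count of 0 became 1 lower gene without B6 mouse 3, 4, 7 or 8 or congenic mouse 5, 2 lower genes without congenic mouse 6, and 1 higher gene without B6 mouse 5 or 7. It also became 1 lower gene in lanes 5 and 6, with mouse number as a block and without the libraries that stood apart. *Ntng1*, which encodes netrin-G1, *Lef1* and *Rgs16* had the smallest p-values of the list, with log2 fold changes of -0.32 (SE 0.16), 0.22 (SE 0.12) and -0.22 (SE 0.15). Relative to the thalamic markers in the same library, the difference of *Slc17a6* between genotypes was -0.21 on the log2 scale (exact permutation p = 0.507), with -0.60 in lanes 5 and 6 (exact permutation p = 0.286), 0.18 in lanes 7 and 8 (exact permutation p = 0.743) and -0.33 without the libraries that stood apart (exact permutation p = 0.337).

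Hypothalamic markers bore a weaker relation to *Slc17a6*, with r = 0.454 and rho = 0.356 (permutation p = 0.0751 for r, adjusted p = 0.169). It was 0.463 without the 2 farthest mice, 0.611 within lanes 5 and 6 and -0.07 within lanes 7 and 8. Of 17 hypothalamic markers 8 were tested, none with an unadjusted p under 0.05. *Otp*, *Sim1*, *Hcrt*, *Pmch* and *Ucn3* each had a mean under 0.1 CPM in both genotypes, though each was above that in at least 1 mouse. Other markers of the list were counted in every mouse. Among them, *Trh* stood at 6.43 CPM in B6 mice and 6.61 in congenic mice, and *Pomc* at 1.64 and 1.67, both named after their values were seen. The median log2 fold change of the tested markers was -0.09, but 0.17 without B6 mouse 1, and -0.23 in lanes 5 and 6 against 0.18 in lanes 7 and 8. *Baiap3* made up 56.4% of the list. The list summed to 21.2 to 85.3 CPM in B6 mice, with B6 mouse 1, the mouse with the most *Slc17a6*, at the top, and to 24.0 to 52.7 CPM in congenic mice. *Irs4*, an insulin receptor substrate gene, and *Gal*, which encodes galanin, had log2 fold changes of -0.58 (SE 0.42) and -0.16 (SE 0.43).

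The 6 genes most like *Slc17a6* over the 16 mice after genotype means were subtracted were *Lhx9* (r = 0.924), *Gpr123* (0.908), *Tmem26* (0.904), *Rasd1* (0.904), *Dgkk* (0.888) and *Tril* (0.887), beside a median of 0.01 over all genes tested. *Lhx9*, a LIM homeobox gene, belongs to the thalamic list. *Lhx9* and *Tmem26* are scarce here, with 0.652 and 0.488 CPM in B6 mice.

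*Slc17a8*, the transporter of cholinergic and other mixed-transmitter neurons, was the steadiest of the 3. It ran from 13.7 CPM in mouse 1 to 20.3 CPM in mouse 3 among B6 mice, with a median of 16.3, and from 13.6 CPM in mouse 1 to 19.2 CPM in mouse 7 among congenic mice, with a median of 15.4. The groups overlapped almost fully, with 7 of 8 congenic mice inside the B6 range and 5 of 8 below the B6 median. Means were 16.7 ± 2.21 and 16.2 ± 2.22 CPM, with coefficients of variation of 13.2% and 13.7%.

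The log2 fold change of *Slc17a8* was -0.04 (SE 0.09; edgeR FDR 0.898), smaller than the spread between mice, and an exact permutation test gave p = 0.668. Its sign depended on single libraries: it was 0.0054 without B6 mouse 3 and 0.0081 without both libraries that stood apart. Within lanes 5 and 6 it was -0.02 (SE 0.15) and within lanes 7 and 8 it was -0.06 (SE 0.10), with an interaction of -0.03 (edgeR FDR 0.98).

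Of 8 markers of cholinergic interneurons, a main striatal source of *Slc17a8*, 6 were higher in congenic mice at an unadjusted p under 0.05 (4.86% of all genes tested) and none lower, none at an edgeR FDR of 5%, with a median log2 fold change of 0.21. The other 2, *Chat* and *Isl1*, named after their values were seen, had 0.10 (SE 0.10) and 0.03 (SE 0.08). *Lhx8*, a transcription factor gene of these cells, had 0.36 (SE 0.12), *Slc5a7*, the choline transporter gene, 0.19 (SE 0.07), and *Slc18a3*, the vesicular acetylcholine transporter gene, 0.28 (SE 0.12). The most abundant gene, *Ecel1*, had 0.20 (SE 0.09) and made up 29.0% of the list. The list summed to 163 to 195 CPM in B6 mice and 168 to 242 in congenic mice, and no gene of it had a mean under 0.1 CPM. The count of 6 was 3 without B6 mouse 1, B6 mouse 8, congenic mouse 1 or congenic mouse 7, 2 without B6 mouse 3, and 3 without both libraries that stood apart. It was 0 in lanes 5 and 6, 4 in lanes 7 and 8 and 4 with mouse number as a block. The cholinergic list too was chosen with earlier results of these data known.

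No relation of *Slc17a8* to these markers was detected across mice (r = 0.057, rho = 0.006, permutation p = 0.832 for r, adjusted p = 0.966), with r of 0.027 without the 2 farthest mice and of -0.107 and 0.257 within the lane pairs. Relative to the cholinergic list in the same library, its log2 ratio averaged -3.42 ± 0.21 in B6 mice and -3.64 ± 0.24 in congenic mice, and 6 of 8 congenic mice lay below the B6 median. The difference of -0.22 did not pass in an exact permutation test over all mice (p = 0.0702). It passed without *Ecel1* in the list (-0.22, exact permutation p = 0.0446), within lanes 7 and 8 (-0.28, exact permutation p = 0.0286) and without congenic mouse 2 (-0.285, exact permutation p = 0.0087). It did not pass within lanes 5 and 6 (-0.16, exact permutation p = 0.429), with equal weight for each gene of the list (-0.24, exact permutation p = 0.0631) or without any other single mouse, as without congenic mouse 1 (-0.165, exact permutation p = 0.139) or B6 mouse 3 (-0.166, exact permutation p = 0.143). Without the libraries that stood apart it was -0.14 (exact permutation p = 0.243).

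Serotonergic neurons of the raphe, the other named source of *Slc17a8*, were nearly absent by their markers. *Slc6a4*, *Fev* and *Lmx1b* had means under 0.1 CPM, and of the 4 markers *Tph2*, which encodes the neuronal tryptophan hydroxylase, was the 1 tested, with a log2 fold change of -0.04 (SE 0.15) and no call. This value was -0.19 without congenic mouse 1, 0.21 in lanes 5 and 6 and -0.32 in lanes 7 and 8, and slightly above 0 without B6 mouse 7 or congenic mouse 5 or 8. The list summed to 1.349 to 2.204 CPM in B6 mice and 1.33 to 2.79 in congenic mice, nearly all of it *Tph2*.

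Between *Slc17a8* and *Slc17a6*, r was -0.573 and rho -0.474 over the 16 mice (permutation p = 0.0219 for r), which did not pass after adjustment (adjusted p = 0.0674). The relation was -0.395 without the 2 farthest mice, -0.539 within lanes 5 and 6 and -0.665 within lanes 7 and 8. In B6 mice alone r was -0.949 (exact permutation p = 0.000347) and in congenic mice alone -0.096 (exact permutation p = 0.814), and whether the genotypes differ in this was not tested. Nor did the relations of *Slc17a8* to thalamic markers (r = -0.550, rho = -0.479, adjusted permutation p = 0.0712) and to hypothalamic markers (r = -0.545, rho = -0.382, adjusted permutation p = 0.0674) pass over all mice, and r was -0.437 and -0.321 without the 2 farthest mice. Within lanes 5 and 6 and lanes 7 and 8, r was -0.496 and -0.680 for thalamic markers and -0.690 and 0.012 for hypothalamic markers. Without the libraries that stood apart, the hypothalamic relation passed (r = -0.658, adjusted permutation p = 0.0226). For *Slc17a7*, r was -0.033 with *Slc17a6* (rho = 0.076) and -0.054 with *Slc17a8* (rho = 0.015), each with an adjusted permutation p of 0.966. Of the 18 relations, 4 passed after adjustment, 3 by Spearman's rho, after genotype means were subtracted or without the 2 farthest mice, and 5 without the libraries that stood apart, which were those 4 and that of *Slc17a8* to hypothalamic markers.

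The 6 genes most like *Slc17a8* were *Tacr1*, the substance P receptor gene (r = 0.941), *Zhx1* (0.85), *Abcc12* (0.825), *Impg1* (0.805), *G630093K05Rik* (0.798) and *Acvr1c* (0.796), after genotype means were subtracted and beside a median of -0.03 over all genes tested. *Tacr1* itself stood at 37.7 ± 4.40 CPM in B6 mice and 39.9 ± 3.62 in congenic mice, a log2 fold change of 0.08 (SE 0.07).

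The remaining SLC17 genes encode phosphate, sialic acid and nucleotide transporters of the same family. *Slc17a1*, *Slc17a2*, *Slc17a3* and *Slc17a4*, known from kidney, liver and gut, had means under 0.1 CPM, and the other 2 of the 6 were tested, neither with an unadjusted p under 0.05. *Slc17a5*, which encodes the lysosomal sialic acid transporter sialin, stood at 5.27 CPM per kilobase in B6 mice and 5.17 in congenic mice, above *Slc17a6* and *Slc17a8* on that scale. *Slc17a9*, the vesicular nucleotide transporter gene, stood at 0.236 and 0.273 CPM per kilobase, with a log2 fold change of 0.21 (SE 0.15). The list, nearly all *Slc17a5*, summed to 16.4 to 20.1 CPM in B6 mice and 16.8 to 19.9 in congenic mice, with a median log2 fold change of 0.09. This median was 0.04 without B6 mouse 8, 0.01 in lanes 5 and 6 and 0.18 in lanes 7 and 8. With no filter on low counts it was -0.03, over 5 genes.

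Of 9 other genes for transporters and proteins of synaptic vesicles 8 were tested, and 2 were lower and 2 higher at an unadjusted p under 0.05 (5.14% and 4.86% of all genes tested), none at an edgeR FDR of 5%, with a median log2 fold change of -0.08. *Slc30a3*, which encodes the vesicular zinc transporter of cortical glutamatergic terminals, had -0.69 (SE 0.28), and *Sv2b*, a vesicle glycoprotein gene, -0.43 (SE 0.11). *Slc18a3* and *Slc32a1* were the higher ones, *Slc32a1* with 0.10 (SE 0.05). The median of this list was -0.02 without congenic mouse 1, -0.05 without B6 mouse 8 and -0.15 in lanes 5 and 6. The 2 lower genes became 1 without B6 mouse 2, 3 or 5 or congenic mouse 8. The 2 higher genes became 0 without B6 mouse 1 or 3 or congenic mouse 1 or 8, and 1 without B6 mouse 2, 5, 6, 7 or 8 or congenic mouse 3, 5 or 7. The higher count was also 0 with mouse number as a block and in lanes 5 and 6, and 1 with the likelihood ratio test, RLE scaling or lane pair as a covariate, and it differed from 2 in 21 of 28 alternatives. Their sum was 1338 to 1479 CPM in B6 mice and 1072 to 1377 in congenic mice, with *Sv2a* the most abundant at 31.5%, and none of its genes had a mean under 0.1 CPM.

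Genes that supply and take up glutamate, all 19 of them tested, had a median log2 fold change of 0.02. That median ran from 0.0031 to 0.0346 with each mouse left out. At an unadjusted p under 0.05, 3 were lower, among them the mitochondrial glutamate carrier gene *Slc25a22* at -0.11 (SE 0.05) and *Slc7a11*, the cystine and glutamate exchanger gene, at -0.17 (SE 0.08). The glutamine transporter gene *Slc38a3* was higher, at 0.19 (SE 0.08), and none passed an edgeR FDR of 5%. Over all genes tested, 10% passed that unadjusted p. In lanes 5 and 6 none of the 19 passed it in either direction by edgeR's test, and in lanes 7 and 8, or with upper-quartile scaling, 1 was lower and 2 were higher. The 3 lower genes became 1 without B6 mouse 2, B6 mouse 6 or congenic mouse 3 and 0 without B6 mouse 5 or congenic mouse 8, and the higher count became 2 without B6 mouse 8 or congenic mouse 2 or 4 and 0 without both libraries that stood apart. *Slc1a2*, the astrocytic glutamate transporter gene, made up 47.2% of a sum of 8498 to 9309 CPM in B6 mice and 7781 to 9217 in congenic mice, and no gene had a mean under 0.1 CPM.

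The vesicular proton pump and the chloride transporter that accompany glutamate loading had 2 of 15 tested genes lower at an unadjusted p under 0.05 and none higher, none at an edgeR FDR of 5%, with a median log2 fold change of -0.05. *Atp6v1a*, a catalytic subunit gene of the pump, had -0.13 (SE 0.04), and *Clcn3*, the chloride transporter gene, -0.11 (SE 0.04). The share of lower genes at that p over all genes tested was 5.14%. The count of 2 was 8 without congenic mouse 1, 7 without both libraries that stood apart, 1 in lanes 5 and 6 and 0 in lanes 7 and 8, and the median was 0.03 in lanes 5 and 6, -0.09 without congenic mouse 1 and -0.01 without B6 mouse 8. Summed, these genes stood at 3708 to 4288 CPM in B6 mice and 3617 to 4572 in congenic mice, with *Atp6v1b2* the most abundant at 13.8%. *Atp6v0c*, with 31 counts over all mice, had a mean under 0.1 CPM and was not tested. Reads with more than 1 alignment were not counted, so this low count does not show that the gene was silent.

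**Figure D5:**
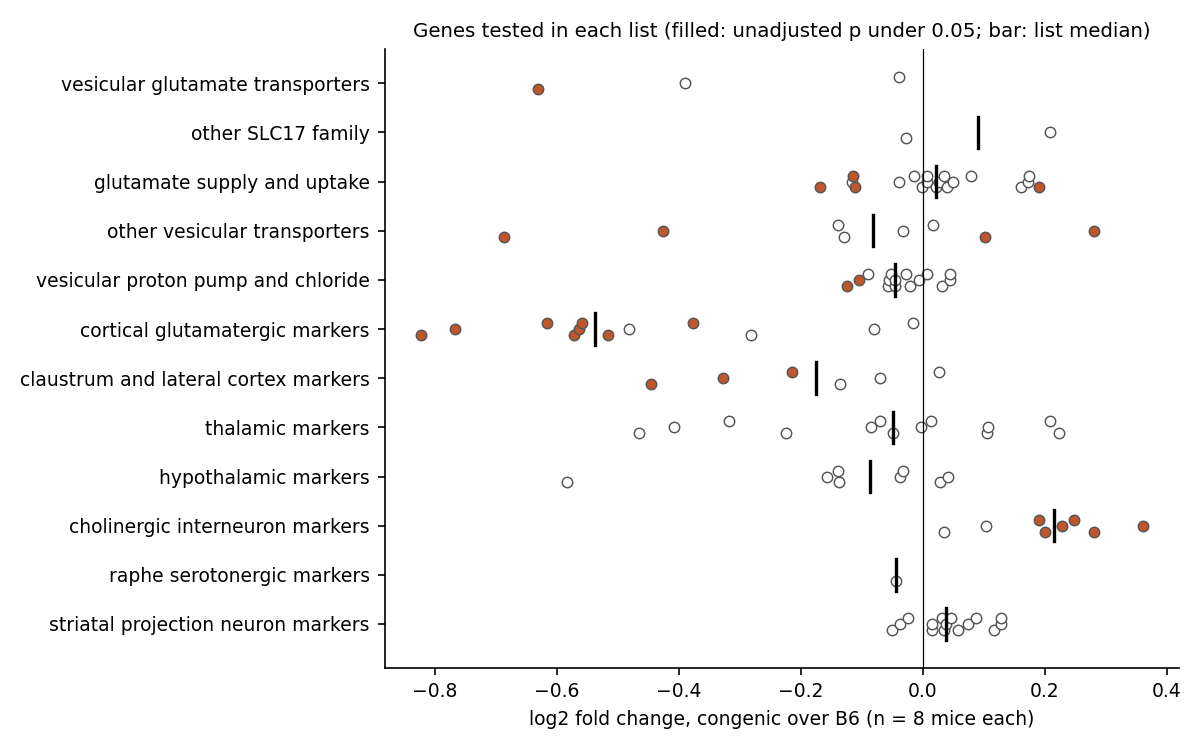
Log2 fold change (congenic over B6, 8 mice each) of *Slc17a7*, *Slc17a6* and *Slc17a8* and of each tested gene of 11 lists, with filled points for an unadjusted p under 0.05 and a bar at the median of each list. Cortical glutamatergic markers lie to the left with *Slc17a7*, with a median of -0.54, and cholinergic interneuron markers to the right, with a median of 0.21.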

How the data were processed

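The authors sequenced stranded oligo-dT libraries in 50-base single-end reads, aligned them with TopHat2 to mm10, counted reads per gene with HTSeq 0.6.1p1 (union mode, strand not used) and deposited raw counts per lane. Reads with several alignments or on several genes were not counted. Their own comparison (fold changes, p-values, FDRs) was not used.

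Lane files differed by little more than sampling noise (chi-square per degree of freedom 0.997 to 1.051, genes with at least 20 counts) and were summed. Between 61.4% and 68.3% of the entries recorded at counting fell on genes, and the rest stayed out of library sizes. Genes passing filterByExpr were scaled by TMM and tested by edgeR 4.0.16 (quasi-likelihood, R 4.3.3) and adjusted by Benjamini-Hochberg across every tested gene. Home cage, in the authors' model, is not in the labels and was left out. Each SE of a log2 fold change was derived from the test, as the absolute log2 fold change over the square root of the F statistic. Log2 CPM used a prior count of 0.5. Permutations used scipy 1.17.1 (Python 3.11). The pipeline was tested on simulated data. Positions are RefSeq's, and exon lengths and sequences GENCODE vM1's by symbol (alignment by MAFFT 7.526).

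The members and lists were chosen with earlier results of these data known. Genes named are the members, each list's most abundant gene, its 3 smallest p-values and its genes at an FDR of 5%, counts of 5 or fewer, and the 6 genes most like each member. A few genes that meet this rule are counted in their lists and are not reported here singly. Alternatives were other scalings and filters, DESeq2 1.42.0, the likelihood ratio test, lane pair as covariate, a replicate block, the second lane alone, each lane pair alone, and leaving out each mouse. Leaving out B6 mouse 8 with congenic mouse 1, all alternatives for list counts, equal weights in ratios, and alternatives for interactions and relations were chosen after seeing the data.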

Additional observations from a re-analysis of the deposited data

Results flagged for a closer look

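In each genotype, the highest or lowest mouse of every value in the text was compared with the nearest of the other 7 mice, and 27 values of 166 groups of mice lay far outside the range of the rest. For normally distributed values, chance alone gives about 1 in 20 such groups, 8.3 of 166. Whether the CPM values and shares are normally distributed was not checked, so the rate for them can differ. None of the 27 was a value of *Slc17a7*, *Slc17a6* or *Slc17a8*.

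Congenic mouse 1 held 16 of them. Of its counted entries, those with more than 1 alignment made up 27.3%, those overlapping more than 1 gene 1.07% and those outside genes 10.2%. Its summed CPM was 1072 for other vesicular transporters, lower than in the other congenic mice, and 4572 for the proton pump and 2.79 for raphe markers, both higher. Single genes were high in it for *Slc38a3* (136.9 CPM), *Atp6v1b2* (603.5), *Synpr* (261.5), *Tph2* (2.70), *Penk* (1660), *Ppp1r1b* (1934) and *Slc10a4* (21.3), and low for *Sv2a* (334.8), *Clcn3* (190.8) and *Pde10a* (1013).

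B6 mouse 1, the mouse with the most *Slc17a6*, was high in the summed hypothalamic markers (85.3 CPM against 21.2 to 38.2 in the other B6 mice), in *Baiap3* (54.65 CPM), *Irs4* (6.60 CPM) and *Gal* (2.46 CPM). B6 mouse 8 stood apart in its shares of counted entries on genes (68.3%), overlapping more than 1 gene (0.93%) and outside genes (11.3%).

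Congenic mouse 2, the congenic mouse with the most *Slc17a7*, was high in the cortical marker *Emx1* (4.34 CPM). Congenic mouse 6, the congenic mouse with the most *Slc17a6*, was high in the thalamic markers *Rgs16* (6.77 CPM) and *Lhx9* (1.46 CPM). Congenic mouse 4 was high in *Irs4* (2.29 CPM). *Slc10a4* and *Emx1* are named here for these values or for likeness to a transporter, *Slc10a4* after its values were seen.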

How the results depend on the processing

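The log2 fold change of *Slc17a7* kept its direction and stayed short of an FDR of 5% in 28 of 28 alternatives, and ran from -0.76 to -0.56 with each mouse left out. Its permutation p lay between 0.00327 and 0.00781. *Slc17a6* changed direction in lanes 7 and 8 (0.045) and ran from -0.54 to -0.18 with each mouse left out. *Slc17a8* ran from -0.078 to 0.0054 with each mouse left out and was 0.0081 without B6 mouse 8 and congenic mouse 1, an alternative chosen after seeing the data. Its interaction with lane pair ran from -0.15 to 0.045 with each mouse left out and changed sign in 6 of 16 cases. That of *Slc17a7* ran from -0.36 to -0.0023 and that of *Slc17a6* from 0.52 to 1.23. For these changes of sign the cause was not tested.

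Genes at an FDR of 5%, 1 with edgeR's quasi-likelihood test, numbered 31 with DESeq2, 20 with the likelihood ratio test, 2 with lane pair as a covariate, 0 in lanes 5 and 6 and 0 in lanes 7 and 8 (500 and 1407 at an unadjusted p under 0.05), 7 without B6 mouse 8 and congenic mouse 1, and 1 to 4 with each mouse left out. The ratio of *Slc17a7* to its list was -0.25 and short of the threshold in lanes 5 and 6, where 4 mice face 4, ran from -0.36 to -0.27 with each mouse left out and was -0.16 with equal weight for each gene of the list, an alternative chosen after seeing the data. The ratio of *Slc17a6* was -0.60 in lanes 5 and 6, 0.18 in lanes 7 and 8 and -0.37 to -0.10 with each mouse left out. That of *Slc17a8* passed at -0.22 without *Ecel1*, at -0.28 in lanes 7 and 8 and at -0.285 without congenic mouse 2, missed at -0.16 in lanes 5 and 6 and at -0.14 without B6 mouse 8 and congenic mouse 1, and ran from -0.285 to -0.17 with each mouse left out. The cause was not tested.

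With mouse number as a replicate block, 0 genes passed an FDR of 5% with edgeR (1377 at an unadjusted p under 0.05), and log2 fold changes were -0.66 for *Slc17a7*, -0.26 for *Slc17a6* and -0.04 for *Slc17a8*. Exact sign-flip tests over the 8 same-numbered pairs gave p of 0.00781, 0.602 and 0.461. Same-numbered mice correlated between -0.115 and 0.364 (mean 0.077), after genotype means were subtracted. The mean was -0.025 for other numbers of the same lane pair and 0.004 across lane pairs. These correlations cannot show whether a shared number marks littermates or cage mates, which the labels do not give.

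Home cage and sex were not entered. The log2 fold change of *Slc17a6* has an SE of 0.33, so a difference of that size would be missed. The striatal punches hold several cell types, and levels per cell were not measured.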
